A study of Caenorhabditis elegans with 12 samples.

Results

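The genes described here are the exogenous RNA interference (RNAi) machinery of Caenorhabditis elegans together with its RNA-dependent RNA polymerases. They were taken by name: rde-1, rde-4, dcr-1, drh-1, drh-3, rrf-1, rrf-2, rrf-3, ego-1 and sid-1, 10 of the 46217 identifiers in the deposited table, and each name matched 1 identifier. The study sequenced total RNA from whole day 1 adult hermaphrodites grown at 20 °C, with 12 samples in 4 groups of 3. Wild type worms were the N2 strain. The cpl-1* strain carried hhIs113 on chromosome I, an integrated transgene that expresses a mutated cathepsin L-like protease from the intestinal nhx-2 promoter, and its label gives the substitutions W32A and W35A and a gfp tag, whereas the tissue label names YFP. The rde-1(ne219); cpl-1* strain (rde-1; cpl-1* in the text below) carried hhIs113 with the missense allele rde-1(ne219) on chromosome V, and its label gives W32A and Y35A, a YFP tag and the pharyngeal marker Pmyo-2::mCherry. The fourth group, cpl-1WT, carried hhIs257 on chromosome III, which expresses the unmutated protease fused to YFP from the same promoter together with myo-2p::mCherry, and it has no values here. No strain with rde-1(ne219) but without the transgene was among these groups, so every value for the rde-1 mutation was measured in worms that also carried cpl-1*.

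The deposited values are FPKM, fragment counts scaled by transcript length and by library size, with 1 pooled value for each gene in each strain. With 1 value per strain there is no spread between replicates, so no difference below has a test, an error or a p-value. The sequencing depth behind each value is unknown. A ratio of 2-fold or more is used as a mark of size only, and it is read against 14763 background identifiers with a mean of at least 1 FPKM that were above 0 in all 3 strains. All 10 genes were in that background.

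In exogenous RNAi, double-stranded RNA enters cells through the channel protein SID-1 and is cut into short interfering RNAs (siRNAs) by Dicer, the product of dcr-1, with its partners RDE-4 and DRH-1. The Argonaute protein RDE-1 binds these primary siRNAs and uses them to find matching mRNAs. RNA-dependent RNA polymerases then copy the targeted mRNA into many secondary siRNAs, which carry most of the silencing, and several of the same proteins also serve endogenous siRNA pathways in the germ line.

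In cpl-1* worms, the mRNA levels of the RNAi genes were within 2-fold of wild type for every one of the 10. In rde-1; cpl-1* worms, 9 of the 10 were lower than in cpl-1* worms, by 23.3% to 55.9%. Relative to the reference genes cdc-42 and pmp-3, drh-1, the least reduced of them, came out above 0 (log2 ratio 0.05). The background median was then 0.51, so drh-1 still lay below it. The tenth, rrf-2, went the other way and was 13.9-fold higher. The plot of the mRNA level of each gene by strain shows these features.

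**Figure D1:**
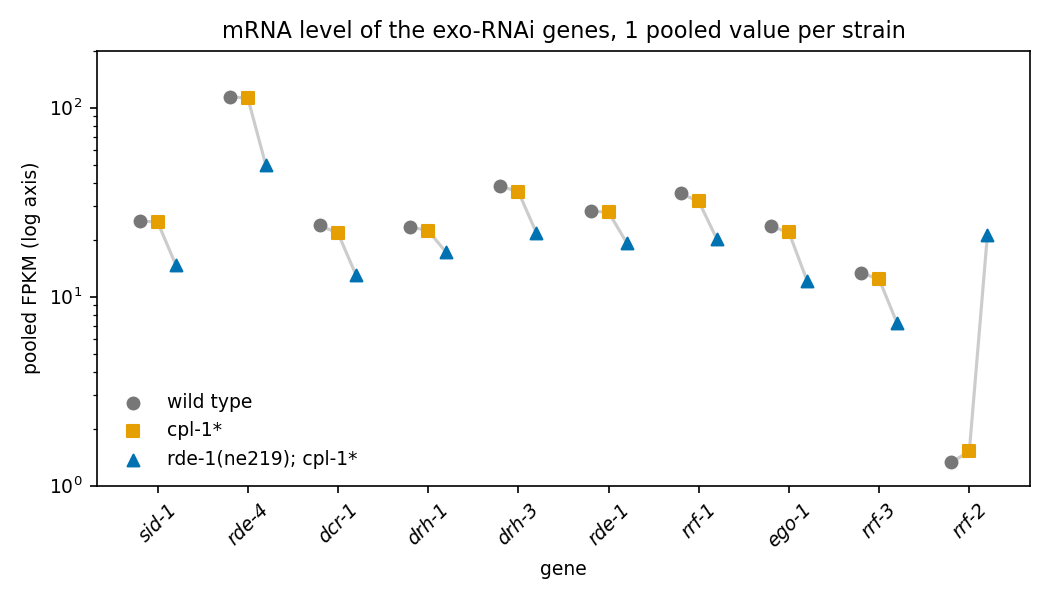
Pooled FPKM (log axis) of the 10 genes in wild type, cpl-1* and rde-1; cpl-1* worms, with 1 point per strain and no error bars because each is a single pooled value. The first 2 points of each gene lie close together and the triangle is the lowest, except for rrf-2, which goes from 1.52 to 21.1 FPKM. Relative to cdc-42 and pmp-3, the log2 ratio of drh-1 to cpl-1* is 0.05, beside a background median of 0.51.

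The first step of the pathway is import. sid-1 (WBGene00004795, chromosome V, 5119939 to 5126916, plus strand, 7 exons; all coordinates are from the deposited loci on WBcel235) encodes the double-stranded RNA channel. Its level was 25.2 FPKM in wild type, 24.8 in cpl-1* and 14.8 in rde-1; cpl-1* worms. The first pair differed by a log2 ratio of −0.02, and the level in rde-1; cpl-1* was 40.4% below that in cpl-1* (log2 ratio −0.75).

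The Dicer complex recognises and cuts the imported RNA. rde-4 (WBGene00004326, chromosome III, 10217302 to 10218646, minus strand, 4 exons) encodes the double-stranded RNA binding protein that hands long duplexes to Dicer. Its level was 114 FPKM in wild type, 112 in cpl-1* and 49.5 in rde-1; cpl-1* worms, the highest of the 10 genes in each strain. The level in rde-1; cpl-1* was 55.9% below that in cpl-1* (log2 ratio −1.18), which made rde-4 the only one of the 10 to be lower by 2-fold or more. Relative to cdc-42 and pmp-3 this ratio was −0.75, under the 2-fold mark.

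dcr-1 (WBGene00000939, chromosome III, 8071916 to 8080281, minus strand, 27 exons) encodes Dicer, the only such nuclease of the worm, which also makes microRNAs. It stood at 23.8 FPKM in wild type, 21.6 in cpl-1* and 13.0 in rde-1; cpl-1* worms. The step to the last value was a reduction of 40.0% (log2 ratio −0.74), smaller than that of its partner rde-4, so that the ratio of dcr-1 to rde-4 was 0.209, 0.192 and 0.262 in the 3 strains. 

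drh-1 (WBGene00001090, chromosome IV, 6607376 to 6613353, minus strand, 20 exons) encodes a helicase related to the mammalian RIG-I family that acts with Dicer and in defence against viruses. Its levels were 23.4 FPKM in wild type, 22.4 in cpl-1* and 17.1 in rde-1; cpl-1*. The last was 23.3% below the second (log2 ratio −0.38), the smallest reduction among the 9 genes that were lower.

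rde-1 (WBGene00004323, chromosome V, 9987916 to 9991642, minus strand, 11 exons) encodes the primary Argonaute and is the gene mutated in the double strain. Because ne219 is a missense allele, the mRNA level does not check the genotype. The level was 28.3 FPKM in wild type, 28.0 in cpl-1* and 19.3 in rde-1; cpl-1* worms. The mutated mRNA was thus still present, 31% below cpl-1* (log2 ratio −0.53), and its reduction was the smallest after that of drh-1. Relative to cdc-42 and pmp-3 the log2 ratio was −0.11 against cpl-1* and −0.02 against wild type, so the size of the reduction depended on the scaling.

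The amplification step needs an RNA-dependent RNA polymerase and the helicase DRH-3. drh-3 (WBGene00008400, chromosome I, 7820831 to 7826433, plus strand, 15 exons) had 38.5 FPKM in wild type, 35.9 in cpl-1* and 21.7 in rde-1; cpl-1* worms, a reduction of 39.6% at the last step (log2 ratio −0.73). rrf-1 (WBGene00004508, chromosome I, 7643431 to 7649777, minus strand, 20 exons), which encodes the polymerase that makes secondary siRNAs in somatic cells, had 35.1, 31.9 and 20.2 FPKM in the same order and was 36.7% lower (log2 ratio −0.66). ego-1 (WBGene00001214, chromosome I, 7650418 to 7656336, minus strand, 15 exons), which encodes the essential germline polymerase, had 23.5, 21.9 and 12.2 FPKM and was 44.3% lower (log2 ratio −0.85). Among the polymerase genes ego-1 had the largest reduction. rrf-1 and ego-1 lie 640 bases apart on the same strand, and the ratio of rrf-1 to ego-1 was 1.49 in wild type, 1.46 in cpl-1* and 1.66 in rde-1; cpl-1* worms.

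rrf-3 (WBGene00004510, chromosome II, 8162465 to 8168644, plus strand, 15 exons) encodes the polymerase of the ERI pathway, which makes endogenous siRNAs in the germ line and whose loss makes worms more sensitive to exogenous RNAi. Its levels were 13.4 FPKM in wild type, 12.4 in cpl-1* and 7.22 in rde-1; cpl-1*, a reduction of 41.6% (log2 ratio −0.78). It was the next to lowest of the 10 genes in wild type and cpl-1* and the lowest in rde-1; cpl-1*.

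rrf-2 (WBGene00004509, chromosome I, 12098671 to 12106112, minus strand, 21 exons) encodes the remaining polymerase of the family. In the deposited annotation it carries RNA-directed RNA polymerase activity and RNA-templated transcription and no RNAi term. Its level was 1.33 FPKM in wild type and 1.52 in cpl-1* worms, the lowest of the 10 genes in both. In rde-1; cpl-1* worms it was 21.1 FPKM, behind only rde-4 and drh-3 and close to the latter (ratio of drh-3 to rrf-2 1.03). This was 13.9-fold above cpl-1* (log2 ratio 3.80) and 15.9-fold above wild type (log2 ratio 3.99). The ratio to cpl-1* ranked 40 from the top among the 14763 background genes.

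Set against the background, the comparison of cpl-1* with wild type showed little in these genes. None of the 10 reached 2-fold in either direction, whereas 15.6% of background genes were higher by 2-fold or more and 1.98% were lower. Before any rescaling 9 of the 10 log2 ratios were below 0, as were 53.8% of the background, but they were small, −0.14 to −0.02, and their sign depended on the scaling. Relative to the median of the background genes rde-1, rde-4 and sid-1 came out above 0, and relative to cdc-42 and pmp-3 drh-1, drh-3 and ego-1 did as well. The median over the 10 was −0.08, beside −0.03 over the background. With single pooled values, differences of this size cannot be told from variation between samples.

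The comparison of rde-1; cpl-1* with cpl-1* was broader across the transcriptome. 24.6% of background genes were higher by 2-fold or more and 13.8% were lower, and among the 10 genes 1 was higher, rrf-2, and 1 was lower, rde-4. Relative to cdc-42 and pmp-3, which shifted all log2 ratios by 0.43, the background split was 37.0% higher and 7.10% lower. The members' counts were 1 higher and 0 lower. The background median was then 0.51. Before this rescaling cdc-42 was at −0.10 and pmp-3 at −0.76. Counted at 1.5-fold, 7 of the 10 were lower, where 26.6% of background genes were, and 1 was higher, where 36.5% were. A ratio below 0 of any size was found for 9 of the 10 and for 47.2% of the background. The median over the 10 was −0.73 beside a background median of 0.08, and the 25th and 75th percentiles of the background were −0.63 and 0.99. 7 of the 9 lower genes, all but rde-1 and drh-1, had ratios below the 25th percentile, and none was below the 5th percentile of −1.86. Since each gene enters as 1 pooled value, these counts describe the libraries as pooled and carry no test.

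**Figure D2:**
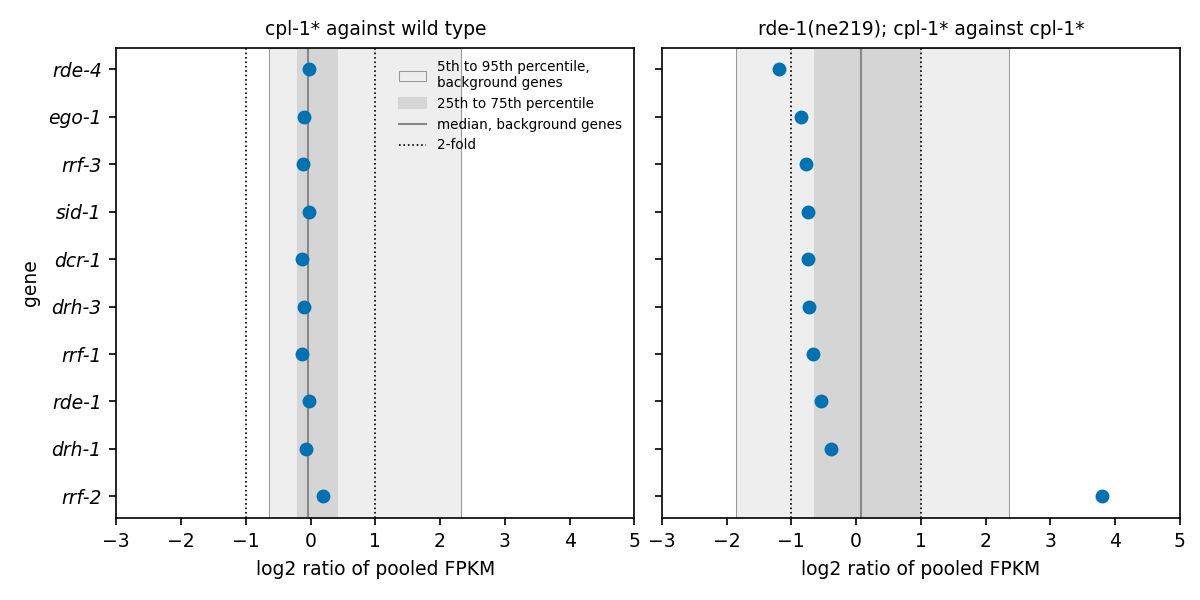
Log2 ratio of pooled FPKM for each of the 10 genes in cpl-1* against wild type (left) and rde-1; cpl-1* against cpl-1* (right), over bands for the 5th to 95th and 25th to 75th percentiles of 14763 background genes. On the left all points lie between −0.14 and 0.20. On the right 9 lie between −1.18 and −0.38 and rrf-2 is at 3.80. Relative to cdc-42 and pmp-3, drh-1 is at 0.05, beside a background median of 0.51.

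Against wild type, where 30.0% of background genes were higher by 2-fold or more in rde-1; cpl-1* and 18.0% were lower, the 10 genes again gave 1 higher, rrf-2, and 1 lower, rde-4. Relative to cdc-42 and pmp-3 rde-4 was at −0.67, so that 0 of the 10 were lower by 2-fold, and 40.9% of the background was higher and 7.81% lower. Ratios below 0 were found for 9 of the 10 and for 48.8% of the background. Relative to cdc-42 and pmp-3, drh-1 was at 0.09, beside a background median of 0.58. This comparison is the sum of the other pair on the log2 scale and adds no independent value, as both of those use the same cpl-1* values. The median over the 10 was −0.81, beside 0.04 over the background.

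The opposite course of rrf-2 changed the make-up of the polymerase family. The summed level of the 4 polymerase genes was 73.4 FPKM in wild type, 67.6 in cpl-1* and 60.7 in rde-1; cpl-1* worms. rrf-2 made up 1.81%, 2.25% and 34.8% of that sum. The share of rrf-1 was 47.9%, 47.2% and 33.3%, which put rrf-2 just above it in rde-1; cpl-1*. The share of ego-1 was 32.1%, 32.3% and 20.1%, and that of rrf-3 was 18.2%, 18.3% and 11.9%. These shares are sums of length-scaled mRNA levels and say nothing of protein or activity.

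The Dicer-related helicase genes showed a like change of shares. drh-2 lies 564 bases from drh-1 on the same strand and is annotated as a pseudogene (Ensembl release 115). It had 7.52 FPKM in wild type, 8.83 in cpl-1* and 27.6 in rde-1; cpl-1* worms, a log2 ratio of 1.64 at the last step. Its share of the helicase sum was 10.9%, 13.2% and 41.5%, while that of drh-3 was 55.5%, 53.5% and 32.7% and that of drh-1 was 33.7%, 33.3% and 25.8%. drh-1 and drh-2 are related in sequence, so fragments may have been split between them and both values are uncertain to that extent.

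**Figure D3:**
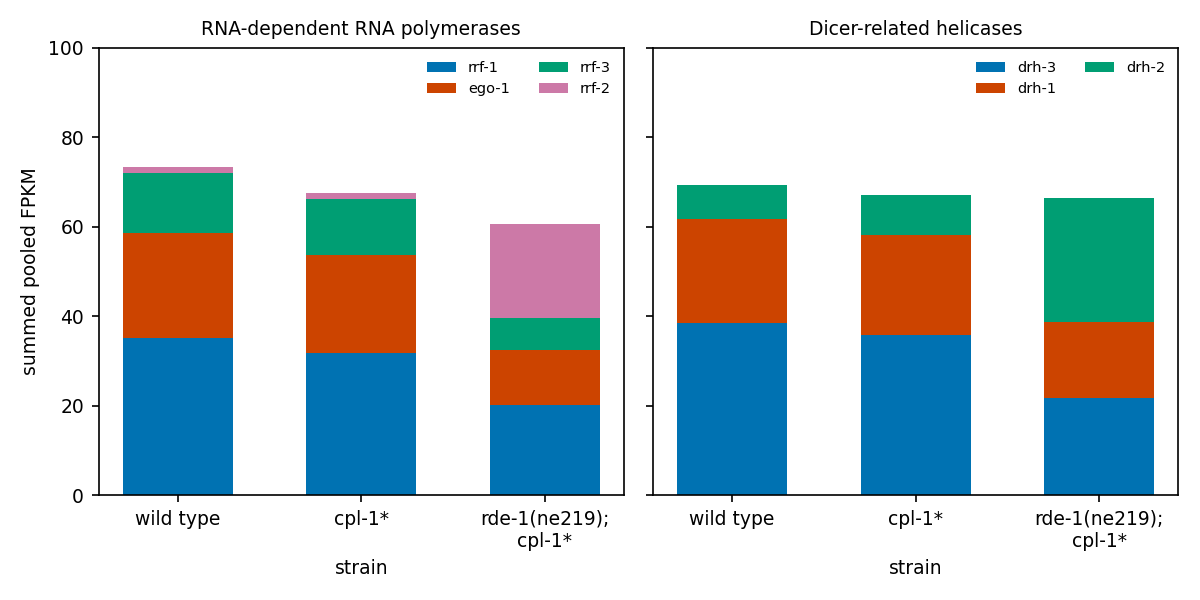
Summed pooled FPKM of the 4 RNA-dependent RNA polymerase genes (left) and the 3 Dicer-related helicase genes (right) in wild type, cpl-1* and rde-1; cpl-1* worms, stacked by gene and without error bars because each value is single. The sums stay between 60.7 and 73.4 FPKM while rrf-2 grows to 34.8% of the polymerases and drh-2 to 41.5% of the helicases.

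Other RNAi genes were described through lists. The siRNA amplification list held 16 genes of the Mutator foci and their partners, which feed targeted mRNAs to the polymerases. In rde-1; cpl-1* against cpl-1* all 16 ratios were below 0, with a median of −0.82 and a range of −1.39 to −0.23. Relative to cdc-42 and pmp-3, mut-15, rde-12 and ekl-1 came out above 0 but below the background median of 0.51. Of the 16, 5 were lower by 2-fold or more and 0 were higher, where 13.8% of background genes were lower and 24.6% higher. Relative to cdc-42 and pmp-3 0 of the 16 were lower by 2-fold, where 7.10% of the background was. mut-2, which encodes a nucleotidyltransferase that adds tails to targeted RNAs, had 58.8 FPKM in wild type, 49.3 in cpl-1* and 18.9 in rde-1; cpl-1* worms. rde-8, which encodes an endonuclease that cuts targeted mRNA, had 63.6, 55 and 22.7 FPKM. Both encode enzymes that act on the targeted RNA, and both were lowest in rde-1; cpl-1*, as were all 16 genes of the list in the deposited values. Of the others lower by 2-fold, nyn-2, a nuclease-family gene related to rde-8, had 37.0, 35.2 and 13.6 FPKM. The helicase gene smut-1 had 48.0, 41.4 and 19.6 FPKM, and rde-2, whose product binds the nuclease MUT-7, had 39.7, 34.5 and 16.8. ekl-1, a partner of the polymerases and DRH-3, was the least reduced, with 53.1, 46.0 and 39.2 FPKM. Against wild type 7 of the 16 were lower by 2-fold or more, with the scaffold gene mut-16 (43.3, 38.6 and 19.8 FPKM) and rde-10 (21.8, 18.4 and 10.4 FPKM) added to the 5, where 18.0% of background genes were lower. The count was 1 relative to cdc-42 and pmp-3, where 7.81% of the background was lower. The lower genes lie on the same side as rde-4 and the 3 polymerase genes rrf-1, ego-1 and rrf-3, not on that of rrf-2. In cpl-1* against wild type none of the 16 reached 2-fold and the median was −0.15.

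Of 8 listed genes of the ERI complex and of microRNA processing 7 were matched, and the eri-1 symbol was merged with another gene in the file and was not used here. In rde-1; cpl-1* against cpl-1* 4 of the 7 were lower by 2-fold or more and 1 was higher, where 13.8% and 24.6% of background genes were, and the median was −1.01. drsh-1, which encodes the Drosha nuclease that begins microRNA processing, had 30.7 FPKM in wild type, 26.5 in cpl-1* and 10.1 in rde-1; cpl-1* worms. Its partner pash-1 had 50.0, 44.7 and 20.3 FPKM. The phosphatase gene pir-1 had 82.2, 68.2 and 33.9 FPKM, and eri-9 had 46.4, 44.7 and 21. These 4 were the ones lower by 2-fold or more, and drh-2 was the one higher. eri-3 (log2 ratio −0.76) and eri-5 (−0.61) were lower by less than 2-fold. Relative to cdc-42 and pmp-3, 0 of the 7 were lower by 2-fold or more, where 7.10% of the background was.

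Of the 4 listed genes of double-stranded RNA transport 3 were higher in rde-1; cpl-1* than in cpl-1* and sid-3 was slightly lower (log2 ratio −0.05). The member sid-1, which is not on this list, was lower (−0.75). Of the background genes 47.2% were lower by any amount and 24.6% were higher by 2-fold or more. So few genes cannot be set apart from these shares. Relative to cdc-42 and pmp-3 all 4 listed genes were above 0, where the background median was 0.51, and the member sid-1 was at −0.32. sid-2, which encodes the intestinal lumen protein that takes up ingested double-stranded RNA, had 8.16 FPKM in wild type, 19.2 in cpl-1* and 118 in rde-1; cpl-1* worms (log2 ratio 1.23, then 2.62). It was the only one of the 4 to pass 2-fold, and its deposited locus is shared with dyf-2, so that part of the value may belong to that gene. The deposited loci of mut-2, mut-16, rde-10, pir-1 and the marker gene col-19 are also wide. Whether those values include fragments of other genes was not tested. sid-5, an endosomal protein gene, had 16.5, 17.8 and 24.4 FPKM, rsd-3 had 25, 24.1 and 33.8, and the kinase gene sid-3 had 14.2, 13.7 and 13.3. The median of the 4 in rde-1; cpl-1* against cpl-1* was 0.47.

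Markers of whole tissues moved in the same comparison as the RNAi genes, and some also moved in cpl-1* against wild type. There the 4 background sperm markers and all intestine and muscle markers were higher, with median log2 ratios of 1.42, 0.45 and 0.46. By 2-fold or more, 3 sperm, 0 intestine and 0 muscle markers were higher, where 15.6% of background genes were. The other medians were −0.10 (germ line and oocyte), −0.05 (neuron) and 0.14 (hypodermis), beside −0.03 over the background. All 12 germ line and oocyte markers were lower in rde-1; cpl-1* than in cpl-1*, 7 of them by 2-fold or more, with a median log2 ratio of −1.30. Relative to cdc-42 and pmp-3, glh-1 and syp-1 came out above 0 but below the background median of 0.51. Of the background genes 47.2% were lower by any amount and 13.8% by 2-fold or more. Of the 12, 5 were lower by 2-fold relative to cdc-42 and pmp-3, where 7.10% of the background was. Their summed level was 3113 FPKM in wild type, 2918 in cpl-1* and 1076 in rde-1; cpl-1* worms. All 6 intestine markers were higher, with sums of 531, 747 and 1253 FPKM, and all 4 muscle markers were higher, with sums of 756, 1001 and 1405 FPKM. By 2-fold or more 2 of the 6 and 0 of the 4 were higher, where 24.6% of background genes were. Relative to cdc-42 and pmp-3 these counts were 4 and 2, where 37.0% of the background was higher. The germ line and oocyte sum was lower, as were the 9 RNAi genes. The hypodermis sum was also lower (1868 to 869 FPKM), but it was mostly col-19 (1837 to 745 FPKM). The other 2 matched hypodermis markers, dpy-7 and elt-3, were higher, and the list median was 0.51. The intestine and muscle sums were higher, as were rrf-2 and sid-2, and so were the sperm and neuron sums given below.

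Of 6 listed sperm markers 5 were matched, with sums of 16.9, 45.5 and 103 FPKM, and the 4 in the background were all higher. Of 5 neuron markers 4 were higher, with sums of 265, 252 and 304 FPKM. In the background 47.2% of genes were below 0. By 2-fold or more 3 of the 4 sperm and 1 of the 5 neuron markers were higher, where 24.6% of background genes were. Relative to cdc-42 and pmp-3 all 5 neuron markers were above 0, but the background median was then 0.51. Of 4 listed hypodermis markers 3 were matched. col-19, an adult collagen, had 1714, 1837 and 745 FPKM, whereas dpy-7, a larval collagen, had 2.36, 9.58 and 94.2. The third, elt-3, had 18.9, 20.8 and 29.6 FPKM. No matched marker was listed at 0 in any strain. Whole worms hold all these tissues, and fewer cells of a type cannot be told apart from less RNA per cell. The part of tissue make-up or of developmental stage in the values of the RNAi genes was not tested. The reference genes themselves differed, as cdc-42, a small GTPase gene, had 219, 210 and 196 FPKM and pmp-3, a peroxisomal transporter gene, had 49.8, 44.7 and 26.4.

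**Figure D4:**
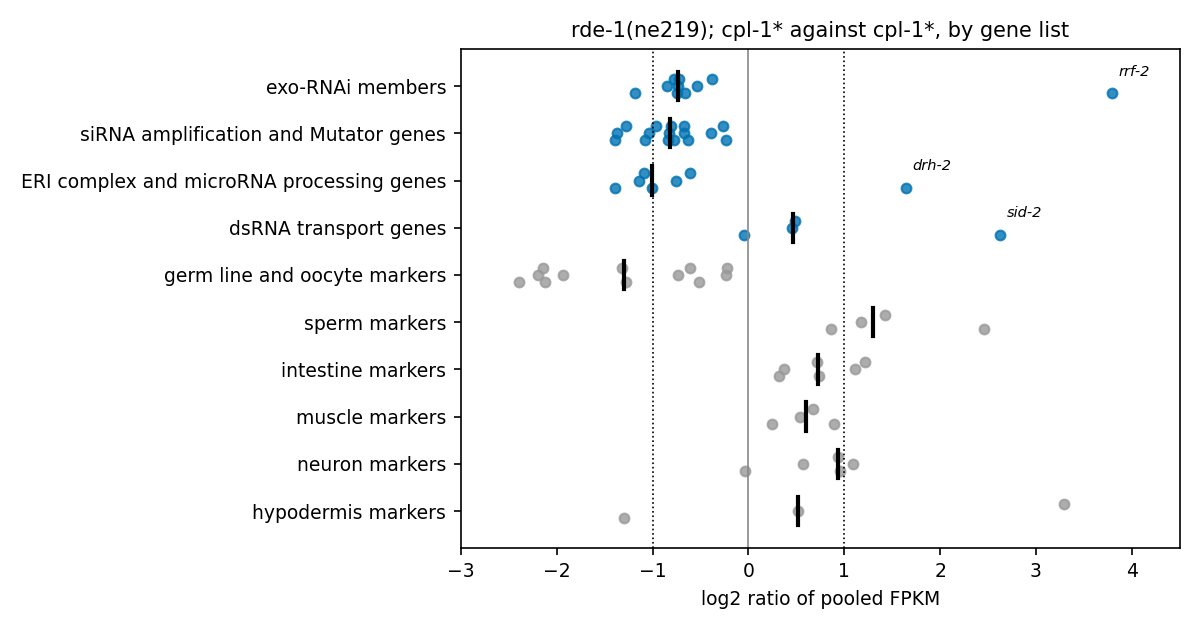
Log2 ratio of pooled FPKM in rde-1; cpl-1* against cpl-1* for each background gene of the RNAi lists (blue) and the tissue marker lists (grey), with the list median as a bar and 2-fold as dotted lines. The amplification and germ line lists lie below 0 (medians −0.82 and −1.30), while rrf-2, drh-2 and sid-2 lie at 3.80, 1.64 and 2.62. Relative to cdc-42 and pmp-3, mut-15, rde-12, ekl-1, glh-1 and syp-1 are above 0 but below the background median of 0.51.

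The loci on both sides of rrf-2 were higher in the same strain. Y47H10A.5 (WBGene00012961) lies 683 bases away on the same minus strand, beyond the 3′ end of rrf-2. It had 2.34 FPKM in wild type, 4.82 in cpl-1* and 676 in rde-1; cpl-1* worms, which was 140-fold above cpl-1* and the highest ratio of all background genes. On the other side M01G12.14, 799 bases away, had 0.790, 0.813 and 1.97 FPKM, and M01G12.9 had 2.31, 5.63 and 44.1, both also on the minus strand. Within 50 kb on each side 9 other loci were in the background, of which these 3 were higher by 2-fold or more and Y47H10A.2 was lower, with 2.27, 1.76 and 0.119 FPKM. On the side of Y47H10A.5 the raised locus is thus the one immediately beside rrf-2. On the other side M01G12.14 and M01G12.9 were the only background loci within 50 kb, so how far the rise extends there is not seen. The neighbours were examined after the values of rrf-2 had been seen, and whether fragments of Y47H10A.5 entered the value of rrf-2 was not tested.

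**Figure D5:**
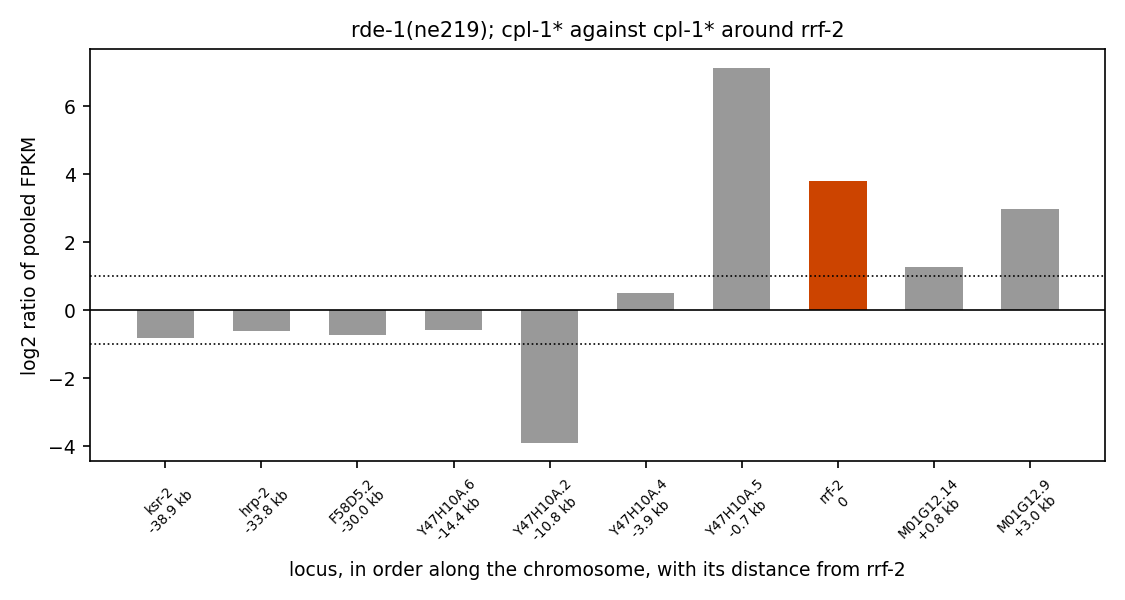
Log2 ratio of pooled FPKM in rde-1; cpl-1* against cpl-1* for rrf-2 (orange) and the 9 other background loci within 50 kb, in order along the chromosome with their distance from rrf-2, and dotted lines at 2-fold. rrf-2 (3.80) stands between Y47H10A.5 (7.13) and M01G12.14 (1.28), with M01G12.9 (2.97) beyond, while the loci farther to the left are between −3.89 and 0.51.

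The same count was made around all members. Over 18 loci adjacent to the 10 genes that are not members themselves, 3 were higher and 4 were lower by 2-fold or more in rde-1; cpl-1* than in cpl-1*, 9 were below 0, and the median log2 ratio was −0.04. In the background 24.6% were higher and 13.8% lower by 2-fold or more, and 47.2% were below 0. The neighbours of rde-4, cts-1 and T20G5.14, had log2 ratios of 0.05 and 0.00 beside −1.18 for rde-4.

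The genes share little that the choice by name did not bring. They lie on 5 chromosomes, with 4 on chromosome I, 2 each on III and V, and 1 each on II and IV. In the deposited annotation the term RNA interference is attached to 6 of them, rde-1, rde-4, drh-1, drh-3, ego-1 and sid-1, and to 36 background genes in all. Production of siRNA is attached to 4, rde-4, dcr-1, drh-3 and rrf-1, and RNA-directed RNA polymerase activity to the 4 polymerase genes.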

How the data were processed

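The authors aligned reads with HISAT2 2.1.0 to WBcel235, assembled with StringTie 1.3.4d and quantified with Cuffdiff 2.2.1 on Ensembl release 91, with FastQC 0.11.7 for quality (tool list in the labels, and the study's methods). The deposited table holds 1 FPKM value per gene and strain, pooled by the authors over 3 samples, for 3 strains. Its fold-change, p and q columns hold the authors' own comparisons and were not used. Log2 ratios were computed from the deposited FPKM without a pseudocount (Python 3.11.15, pandas 2.3.3). The calls were run on simulated data with planted changes past the 2-fold mark. That run checked the computation only and says nothing of how reliable a call is with 1 value per strain. The background was 14763 of 46217 identifiers with a mean of at least 1 FPKM and above 0 in 3 strains, and called means 2-fold or more. No test was possible on 1 value per strain. Alternatives were pseudocounts of 0.1 and 1, no minimum or 5 FPKM, centring on the background median or on cdc-42 and pmp-3, a 1.5-fold call and, added after seeing the data, counting repeated identifiers once. The members and gene lists were chosen with earlier results of these data known. All 10 members are named. Genes of the other RNAi lists are named where past 2-fold in a comparison or the extreme of their list. Single markers, mut-15, rde-12, eri-3, eri-5, the remaining transport genes and neighbouring loci were named after their values were seen. Strand and exon numbers are from Ensembl release 115. Reads per sample were unknown, so no limit from depth could be set.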

Additional observations from a re-analysis of the deposited data

How the results depend on the processing

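rrf-2 in rde-1; cpl-1* against cpl-1* stayed past 2-fold under all 8 alternatives, with log2 ratios from 3.13 (pseudocount of 1 FPKM) to 4.22 (relative to cdc-42 and pmp-3). The FPKM minima, the 1.5-fold call and the counting of repeated identifiers once do not alter the ratio of a single gene, so they could not move it. Relative to cdc-42 and pmp-3, the median of the 10 genes in cpl-1* against wild type was 0.027 instead of −0.08, and rde-4 had −0.75 against cpl-1* and −0.67 against wild type, so that 0 members instead of 1 were lower past 2-fold in both comparisons. The amplification list then had 0 lower instead of 5 against cpl-1* and 1 instead of 7 against wild type, the ERI and microRNA list 0 instead of 4 and 1 instead of 4, and the transport list 2 higher instead of 1 against wild type. Called at 1.5-fold, 7 members were lower in both comparisons, with the medians at −0.73 and −0.81 past that mark, and 13 amplification genes were lower in both. Of 240 member values under alternatives, 215 kept their direction and side of the mark and 0 turned past it. A turn could be counted only where the main ratio was already past 2-fold, which held for rde-4 and rrf-2 alone. That 0 therefore says little. Among ratios under the mark, 8 changed sign relative to cdc-42 and pmp-3 and 3 relative to the background median. The 215 include 30 values under each of no minimum, 5 FPKM and repeated identifiers counted once. Those were the same by construction and say nothing of stability. The 1.5-fold call also leaves each ratio unchanged, so there only the side of the mark could move. In cpl-1* against wild type the background counts were 2301 higher and 293 lower, 1409 and 179 with a pseudocount of 1 FPKM, 1122 and 126 at 5 FPKM, and 3231 and 832 with no minimum. The 1.5-fold call gave 3086 and 881. In rde-1; cpl-1* against cpl-1* they were 3628 and 2038, 1718 and 1513 at 5 FPKM, 5467 and 1048 relative to cdc-42 and pmp-3, and 5395 and 3931 at 1.5-fold. Against wild type 4422 and 2656 became 2231 and 2097 at 5 FPKM, 6041 and 1153 relative to cdc-42 and pmp-3, and 5697 and 4578 at 1.5-fold. No paired analysis was possible because the pooled values carry no replicate numbers, and leaving out a replicate was not possible for the same reason. The pooled values set no limit from depth.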

Other observations

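The genes whose pattern over the 3 strains was most like that of rrf-2 were found among 4071 background genes with a mean FPKM within 2-fold of its own, by the Euclidean distance between their pairs of log2 ratios. Y58A7A.5 was the nearest, at a distance of 0.273, with 2.1 FPKM in wild type, 2.82 in cpl-1* and 35.3 in rde-1; cpl-1* worms. M04C3.5 (distance 0.381) had 1.48, 1.56 and 16.8 FPKM, and B0507.8 (distance 0.474) had 0.468, 0.583 and 11.1. B0507.10 followed at 0.641, with 1.38, 1.45 and 13.1 FPKM under both of its identifiers. All of these lie on chromosome V, and rrf-2 lies on chromosome I. The share of the 4071 genes that lie on chromosome V was not counted, and the genes were picked from these same values. The likeness rests on 3 pooled values per gene.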
